A study of Rattus norvegicus with 36 samples.

Results

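The CYP2 and CYP3 cytochrome P450 genes were followed in the liver of male rats given the brominated flame retardant TBBPA-DBPE, tetrabromobisphenol A-bis(2,3-dibromopropyl ether), by mouth. A probe set was included when the platform annotation gave it exactly 1 gene and that gene's symbol began with Cyp2 or Cyp3 followed directly by a letter. This selected 31 of the 31042 probe sets tested, which cover 29 of the 14217 genes with a probe set of their own. A further 3 probe sets that name several genes, at least 1 of them a CYP2 or CYP3 gene, were not used. The 36 Harlan Sprague Dawley rats were 7 weeks old when dosing began. They received corn oil alone (vehicle, dose 0) or the compound in corn oil at 1 of 5 doses, which rose from 0.1 mg/kg through 0.94 and 9.4 mg/kg to 94.3 mg/kg and then 943 mg/kg, in a volume of 5 ml/kg by gavage on 5 consecutive days, with 6 animals per group. RNA was taken from the left liver lobe 1 day after the last dose, and each animal had 1 single-colour array. All animals were male, and the labels give no genetic modification and no second treatment. Values are RMA log2 intensities, so a difference of 1 is a 2-fold change in signal. The array medians lay between 4.59 and 4.66 and the highest single value was 14.43. Hepatocyte markers were bright in every group, with a list mean over 8 genes of 12.88 to 13.05 in the vehicle animals and 12.96 to 13.03 at 943 mg/kg.

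Cytochromes P450 of these families are haem monooxygenases of the endoplasmic reticulum that oxidise drugs, steroids and fatty acids with electrons from the reductase Por. Many foreign compounds induce them in hepatocytes, CYP3A genes mainly through the pregnane X receptor PXR (Nr1i2) and CYP2B and CYP2C genes mainly through the constitutive androstane receptor CAR (Nr1i3). In rat liver several members also differ by sex under growth hormone: Cyp2c11, Cyp2c13, Cyp2a2, Cyp3a2 and Cyp3a18 are known as male-predominant, and Cyp2c12, Cyp2c7, Cyp2a1 and Cyp3a9 as female-predominant.

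All 29 genes matched the RefSeq gene table under the same symbol. Of them 18 lie on chromosome 1, where the 7 Cyp2c genes follow one another in the order of the members, 4 Cyp3a genes lie on chromosome 12, 3 Cyp2j genes on chromosome 5, 3 Cyp2d genes on chromosome 7 and Cyp2u1 on chromosome 2. RefSeq promoter windows (GRCr8, 250 bases before to 50 after the gene start) were held for 27 of the 29 genes. The 250 bases before the start are shown for the 4 CYP3A genes, since CYP3A is the subfamily that PXR is known for and its members had both the widest and one of the narrowest spreads between animals below. Capitals mark AGTTCA, a form of the nuclear receptor half-site, on either strand (TGAACT is its reverse complement). They also mark CAAAGTCCA, a form of the site of HNF4, a factor that maintains hepatocyte genes. Other forms of the half-site were neither searched nor marked. The sequences come from chr12:21960161-21960410 (reverse strand), chr12:13994062-13994311 (forward strand), chr12:14398804-14399053 (reverse strand) and chr12:14343858-14344107 (reverse strand), each written 5′ to 3′ along the gene.
Cyp3a9: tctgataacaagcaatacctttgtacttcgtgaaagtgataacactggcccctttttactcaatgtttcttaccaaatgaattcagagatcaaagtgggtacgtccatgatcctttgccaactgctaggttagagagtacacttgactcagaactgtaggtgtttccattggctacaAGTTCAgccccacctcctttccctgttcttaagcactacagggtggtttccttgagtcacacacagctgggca
Cyp3a18: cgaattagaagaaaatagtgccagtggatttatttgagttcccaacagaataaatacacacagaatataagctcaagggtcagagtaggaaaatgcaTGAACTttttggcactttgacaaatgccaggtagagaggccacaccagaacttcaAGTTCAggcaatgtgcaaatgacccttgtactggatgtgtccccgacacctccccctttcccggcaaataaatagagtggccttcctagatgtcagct
Cyp3a23-3a1: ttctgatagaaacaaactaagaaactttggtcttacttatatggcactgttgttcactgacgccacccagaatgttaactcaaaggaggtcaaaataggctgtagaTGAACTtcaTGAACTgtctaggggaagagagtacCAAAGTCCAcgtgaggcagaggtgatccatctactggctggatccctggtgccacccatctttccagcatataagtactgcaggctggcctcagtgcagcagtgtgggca
Cyp3a2: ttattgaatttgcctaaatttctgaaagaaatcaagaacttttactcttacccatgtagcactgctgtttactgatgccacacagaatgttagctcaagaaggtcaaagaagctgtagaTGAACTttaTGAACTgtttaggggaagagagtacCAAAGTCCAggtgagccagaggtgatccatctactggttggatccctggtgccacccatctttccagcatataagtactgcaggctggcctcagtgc
In Cyp3a23-3a1 and Cyp3a2 the pair of half-sites is a direct repeat with 3 bases between, the DR3 element to which PXR is known to bind. It reads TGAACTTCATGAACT in Cyp3a23-3a1, starting 144 bases before the gene start, and TGAACTTTATGAACT in Cyp3a2, starting 131 bases before it. AGTTCA repeated in 1 direction with any 3 bases between was found on either strand in 2 of the 33469 promoter windows of the table, and both are these genes. The search took only these exact letters, which are those of the repeat in these genes. Repeats of other half-site forms were not counted, so the count does not give how rare DR3 elements are. CAAAGTCCA follows in both (110 and 97 bases before the start) and was present in 131 of all windows (0.391%). Shifted by 13 bases so that the repeats coincide, the 2 upstream stretches were identical at 165 of 237 bases (69.6%). Cyp3a9 had 1 half-site of this form, 73 bases before its start, and Cyp3a18 had 2 on opposite strands, 153 and 98 bases before its start. AGTTCA alone, which the DR3 contains, occurred in 10 of the 27 windows (37.0%) and in 14.5% of all windows. Other spacings searched, AGTTCA repeated in 1 direction with 4 bases between (DR4) and TGAACT followed by AGTTCA with 6 bases between (ER6), were in 0 of the 27 windows and in 4 and 0 of all windows. These counts too leave out other half-site forms.

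The next pair shows Cyp2c12 and Cyp2c13, which lie next to each other in the order of the members on chromosome 1 and had the widest and the narrowest spread between animals among the CYP2C genes. Capitals mark the same half-site form AGTTCA and ATTGATT, a form of the site of HNF6 (Onecut1), a liver factor known to act on Cyp2c12. The sequences come from chr1:248677035-248677284 (reverse strand) and chr1:248787189-248787438 (reverse strand).
Cyp2c12: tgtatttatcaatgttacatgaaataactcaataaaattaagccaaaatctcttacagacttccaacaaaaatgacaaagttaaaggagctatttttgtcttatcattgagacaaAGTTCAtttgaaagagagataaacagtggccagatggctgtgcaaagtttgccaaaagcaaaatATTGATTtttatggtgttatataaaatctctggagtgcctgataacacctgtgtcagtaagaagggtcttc
Cyp2c13: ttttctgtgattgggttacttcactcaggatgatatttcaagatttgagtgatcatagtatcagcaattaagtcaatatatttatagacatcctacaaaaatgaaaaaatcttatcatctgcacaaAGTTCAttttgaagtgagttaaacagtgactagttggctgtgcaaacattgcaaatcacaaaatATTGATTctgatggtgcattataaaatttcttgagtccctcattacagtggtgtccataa
ATTGATT lies 71 bases before the start of Cyp2c12 and 60 before that of Cyp2c13. The half-site lies 135 and 124 bases before, so that both motifs have the same spacing in both genes. Shifted by 11 bases, the 2 stretches were identical at 141 of 239 bases (59.0%). ATTGATT on either strand was in 3 of the 27 windows, the third being Cyp2c7, and in 2.59% of all windows. These matches describe letters only, and binding was not measured.

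The first question was whether any dose changed the level of these genes. No CYP2 or CYP3 probe set passed the adjusted threshold of 0.05 in limma at any dose, in the F test over the 5 doses or in the trend over dose rank (0 of 31 in each), and the background of all 31042 probe sets was 0% called in each. An ordinary linear model also called 0 of 31. At an unadjusted p under 0.05, in ascending order of dose, 1, 0, 2, 5 and 1 of the 31 members were lower than vehicle and 0 were higher. Of all probe sets 2.62%, 2.06%, 2.64%, 3.22% and 2.67% were lower at this p, 3.00%, 2.10%, 2.21%, 3.68% and 3.07% were higher, and 5.62%, 4.16%, 4.85%, 6.90% and 5.74% were either. In the F test 0 of 31 members reached it, against 5.35% of all probe sets. The members behind these counts were Cyp2c23 at 0.1, 9.4 and 94.3 mg/kg, Cyp2a2 at 9.4 and 94.3 mg/kg, both probe sets of Cyp2j3 and Cyp3a23-3a1 at 94.3 mg/kg, and Cyp2c22 at 943 mg/kg. Most measured differences were small: 147 of 155 (31 probe sets at 5 doses) were under 0.25 in size. The 95% interval lay within a 1.5-fold change for 140 of 155 and within a 2-fold change for 152. The 15 intervals that reached past 1.5-fold belonged to Cyp3a9, Cyp2c12 and the second probe set of Cyp2d4. The largest difference was -0.49, for Cyp3a9 at 94.3 mg/kg. Leaving out 1 animal at a time turned the sign of 66 of the 155 differences, 60 of them under 0.1 in size, and only 20 of the 155 stayed within 1.5 times their value whichever animal was left out. Among those 20 were Cyp2c23 at the 4 highest doses, Cyp2a2 at 9.4 and 94.3 mg/kg, both probe sets of Cyp2j3 at 94.3 and 943 mg/kg, Cyp3a23-3a1 and Cyp3a18 at 94.3 mg/kg and Cyp2c22 at 943 mg/kg.

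**Figure D1:**
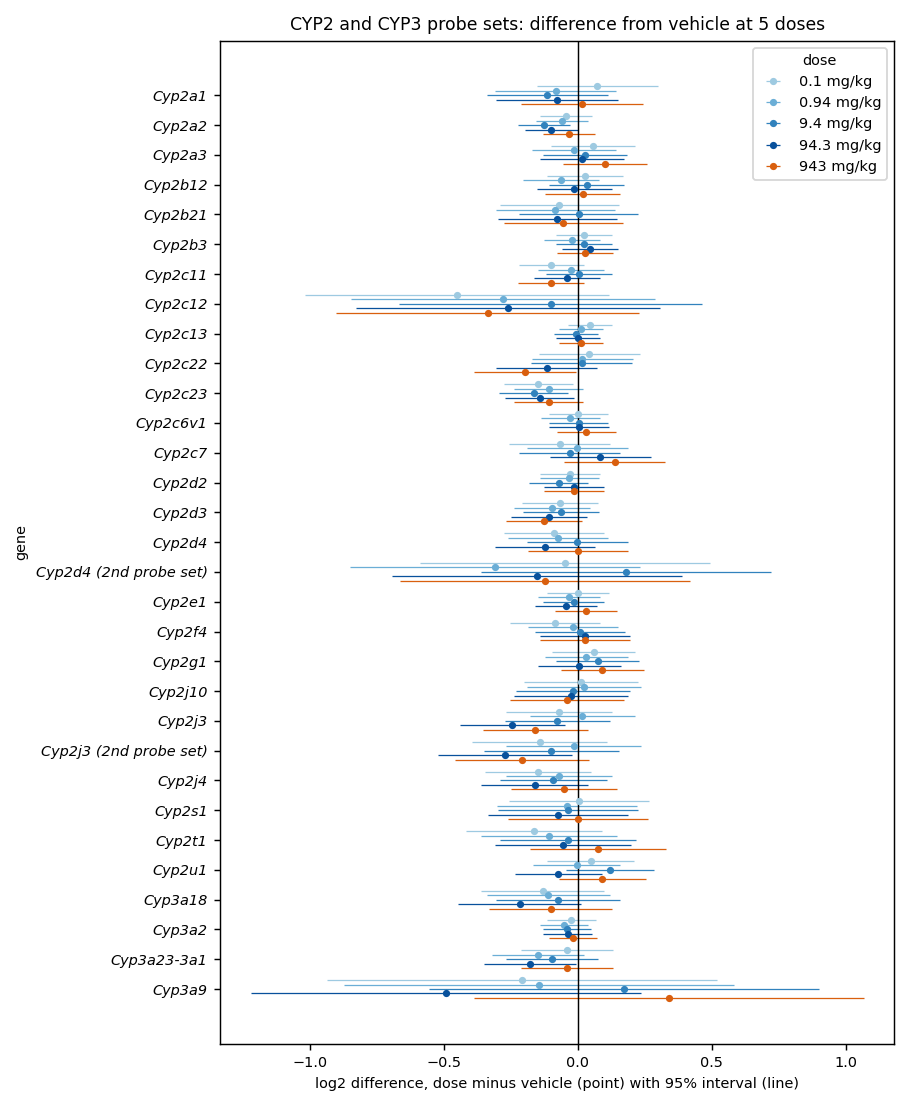
Log2 difference from vehicle (x axis, points) with its 95% interval (lines) for the 31 CYP2 and CYP3 probe sets (y axis) at 5 doses (colours), 6 animals per group. Of the 155 points 147 lie within 0.25 of 0, and the long lines are those of Cyp3a9, Cyp2c12 and the second probe set of Cyp2d4.

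More members lay below vehicle than above it at each dose. Of 31 probe sets 20, 26, 19, 25 and 17 were lower in ascending order of dose (64.5%, 83.9%, 61.3%, 80.6% and 54.8%), against 50.1%, 50.8%, 52.9%, 48.4% and 50.3% of all probe sets. Median member differences were -0.05, -0.04, -0.02, -0.07 and -0.02, and the medians of all probe sets lay between -0.0060 and 0.0034. Each median moved by over 1.5 times with some animal left out. It was -0.011 at 0.1 mg/kg without 0.1 mg/kg replicate 6, -0.063 at 0.94 mg/kg without vehicle replicate 5, -0.0020 at 9.4 mg/kg and -0.040 at 94.3 mg/kg without vehicle replicate 3, and it turned to 0.0044 at 943 mg/kg without 943 mg/kg replicate 2. All 5 comparisons use the same 6 vehicle animals, so these counts are not independent of each other. Nor are the 31 members independent within a comparison. Many P450 genes were correlated between animals (median r of 0.195 over 171 pairs, given below), and Cyp2d4 and Cyp2j3 count 2 probe sets each. Lower at all 5 doses were 11 of 31 probe sets (35.5%, against 17.6% of all probe sets), those of Cyp3a2, Cyp3a18, Cyp3a23-3a1, Cyp2a2, Cyp2c12, Cyp2c23, Cyp2d2, Cyp2d3 and Cyp2j4, the brighter of Cyp2d4 and the second of Cyp2j3. Several were lower by very little, such as Cyp2d4 (-0.00112) and Cyp2d2 (-0.015) at 943 mg/kg, and both of these turned upward without 1 animal (to 0.053 and 0.012). Those lower at all 5 doses whichever animal was left out were Cyp2a2, Cyp2c23, Cyp2d3 and Cyp3a18, 4 of 31 (12.9%, against 5.4% of all probe sets). Higher at all 5 was Cyp2g1 (1 of 31, 3.23%, against 17.1% of all probe sets), whose signal lay below every array median and whose difference at 0.94 mg/kg turned to -0.022, and at 94.3 mg/kg to -0.049, without vehicle replicate 4. In whole liver, fewer cells of a type and less RNA per cell cannot be told apart.

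Among the CYP3A genes, the main drug-oxidising P450 family of liver, Cyp3a23-3a1 is the classic PXR-induced form of the rat. Its values (lowest, median, highest of 6) were 12.07, 12.32 and 12.47 in vehicle, 11.89, 12.12 and 12.24 at 94.3 mg/kg, and 12.06, 12.30 and 12.43 at 943 mg/kg. The groups overlapped at both doses. The difference was -0.18 ± 0.083 (SE) at 94.3 mg/kg (adjusted p = 0.686 in limma), -0.15 at 0.94 mg/kg and -0.04 at 943 mg/kg, where its 95% interval ran from -0.21 to 0.13. Cyp3a2, a male-predominant testosterone hydroxylase, was almost the same in all animals, with 13.35, 13.48 and 13.50 in vehicle and 13.37, 13.45 and 13.51 at 943 mg/kg. Its 5 differences lay between -0.05 and -0.02, and its highest animal was 1.18 times its lowest over all 36. Both genes share the repeat printed above. Cyp3a18 had 11.90, 12.18 and 12.43 in vehicle, from 11.74 to 12.07 at 94.3 mg/kg, and 11.78, 12.13 and 12.21 at 943 mg/kg. Its difference at 94.3 mg/kg was -0.22 ± 0.11 (SE, adjusted p = 0.742 in limma), with 1 animal below the vehicle range.

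Cyp3a9, the female-predominant member, varied more between animals than any other probe set of the family. Its vehicle animals read 8.13, 7.85, 9.09, 8.02, 6.22 and 7.54, and those at 943 mg/kg 8.07, 8.17, 9.26, 8.95, 7.91 and 6.53. The animals at 94.3 mg/kg read 7.69, 6.71, 7.05, 6.79, 7.80 and 7.85. Both the vehicle and the 943 mg/kg groups therefore held animals near the top and near the bottom of the range. Over all 36 animals the highest was 8.25 times the lowest (6.22 to 9.26). The difference from vehicle was -0.49 ± 0.36 at 94.3 mg/kg and 0.34 ± 0.36 at 943 mg/kg (SE), with 95% intervals from -1.22 to 0.23 and from -0.39 to 1.07 (adjusted p = 0.847 and 0.924 in limma). At 9.4 mg/kg it was 0.17. All 3 values moved when a single vehicle animal was left out. Without vehicle replicate 5, the lowest, they were -0.81, 0.021 and -0.15 at 94.3, 943 and 9.4 mg/kg, and without vehicle replicate 3, the highest, the first was -0.24 and the last 0.43. Without 943 mg/kg replicate 6 the difference at that dose was 0.66. The differences at 0.1 and 0.94 mg/kg (-0.21 and -0.15) turned to 0.046 and 0.11 without vehicle replicate 3. The SD between animals was 0.94 in vehicle, 0.63 at 0.1, 0.18 at 0.94, 0.47 at 9.4, 0.52 at 94.3 and 0.95 at 943 mg/kg, an order that does not follow the dose.

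**Figure D2:**
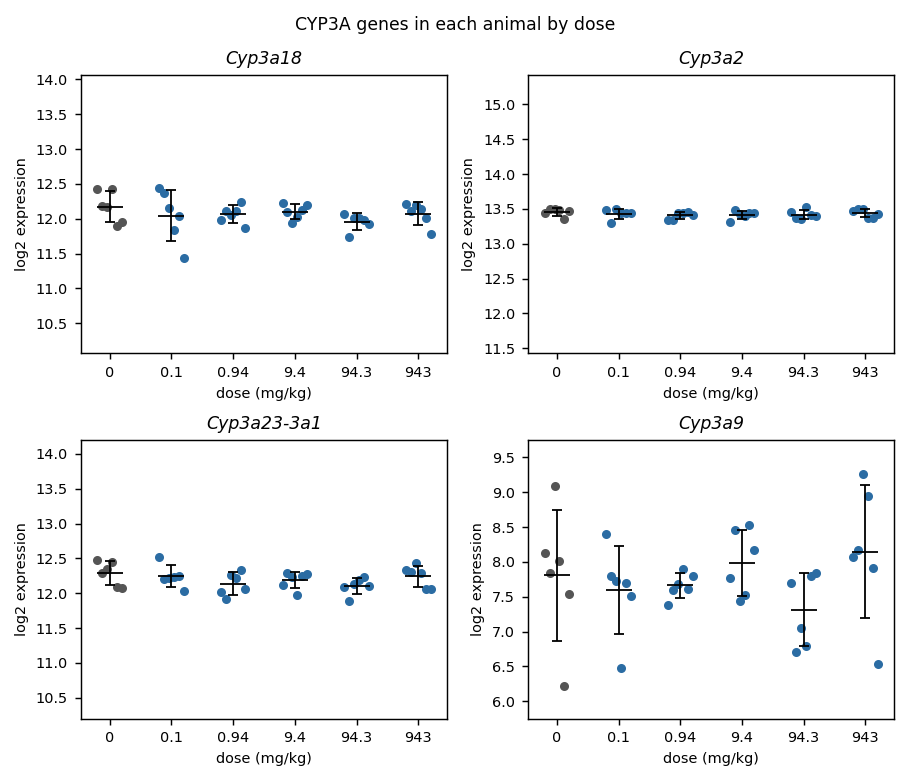
Log2 expression (y axis, a span of 4 in every panel) of the 4 CYP3A genes in each of 36 animals (points) by dose in mg/kg (x axis, 0 is vehicle), with the mean (bar) and SD (whiskers) of 6 animals. Cyp3a2 lies on an almost flat line from 13.30 to 13.53, and Cyp3a9 spreads from 6.22 to 9.26.

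The CYP2C genes hold the main constitutive steroid and drug hydroxylases of rat liver. Cyp2c11, the male-specific testosterone hydroxylase, read 12.91, 13.10 and 13.15 (lowest, median, highest) in vehicle, 12.83, 12.98 and 13.08 at 0.1 mg/kg and 12.73, 13.01 and 13.15 at 943 mg/kg. The groups overlapped, and the differences at 0.1 and 943 mg/kg were both -0.10 (adjusted p = 0.899 and 0.868 in limma), the second being -0.051 without 943 mg/kg replicate 5. Cyp2c13, another male-predominant form, had the narrowest spread of all members. Its 36 values lay between 13.00 and 13.20 and its differences between -0.01 and 0.04. Cyp2c6v1, a form common to both sexes that CAR activators can raise, had differences from -0.03 to 0.03.

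Cyp2c23, an arachidonic acid epoxygenase, was measured lower than vehicle at every dose. Its values were 12.37, 12.44 and 12.57 in vehicle and 12.21, 12.28 and 12.36 at 9.4 mg/kg, where 6 of 6 animals lay below the vehicle range. The gap between these 2 groups was narrow (12.36 against 12.37). The share of all probe sets separated from vehicle in this way was not computed. At the other doses 4 (0.1), 3 (0.94), 4 (94.3) and 5 (943 mg/kg) of 6 animals lay below the vehicle range and the groups overlapped. The differences were -0.15, -0.11, -0.17, -0.14 and -0.11 in ascending order of dose, 1.08-fold to 1.12-fold lower, with unadjusted p of 0.0245, 0.0926, 0.0132, 0.0309 and 0.0937 and adjusted p of 0.856, 0.999, 0.98, 0.657 and 0.868 (limma). Without 0.1 mg/kg replicate 6, the lowest of all 36 animals at 11.99, the difference at that dose was -0.087. Its size showed no order with dose (slope -0.017 ± 0.011 SE per dose rank, adjusted p = 0.886 in limma).

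Cyp2c22, a retinoic acid hydroxylase, had the smallest trend p of the members. Its medians were 12.47, 12.47, 12.46, 12.46, 12.34 and 12.28 from vehicle to 943 mg/kg, so the lower values were at the 2 highest doses. The range at 943 mg/kg (12.10 to 12.46) overlapped that of vehicle (12.18 to 12.79), with 2 of 6 animals below it. The difference at 943 mg/kg was -0.20 ± 0.093 (SE, 1.15-fold lower, adjusted p = 0.865 in limma), and the slope was -0.042 ± 0.016 (SE) per dose rank (adjusted p = 0.825). Cyp2c7, a female-predominant retinoid and steroid hydroxylase on the same chromosome, was the member with the largest upward difference among the CYP2C genes. It read 12.42, 12.70 and 12.93 in vehicle and 12.50, 12.86 and 13.03 at 943 mg/kg, with 3 of 6 animals above the vehicle range. This was a difference of 0.14 (adjusted p = 0.875 in limma), or 0.083 without vehicle replicate 4, with a slope of 0.032 ± 0.015 (SE) per dose rank (adjusted p = 0.874 in limma). At an unadjusted trend p under 0.05 there were 4 of 31 member probe sets (Cyp2c22, Cyp2c7 and both of Cyp2j3), against 5.68% of all probe sets.

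Cyp2c12, the female-specific steroid sulphate hydroxylase, was measured in these males with values from 9.02 to 11.44. The vehicle animals were close together (10.70, 11.01 and 11.17), while the doses reached lower: 9.70, 10.50 and 11.15 at 0.1 mg/kg, 9.68, 10.79 and 11.25 at 94.3 mg/kg, and 9.02, 10.86 and 11.39 at 943 mg/kg. Every dose group overlapped the vehicle group. The SD was 0.17 in vehicle and 0.56, 0.31, 0.44, 0.56 and 0.83 at the doses in ascending order. The mean difference was -0.45 ± 0.28 (SE) at 0.1 mg/kg (adjusted p = 0.903 in limma) and -0.34 ± 0.28 at 943 mg/kg (adjusted p = 0.899). Without 0.1 mg/kg replicate 6 the first of these was -0.28, and without 943 mg/kg replicate 6, the lowest animal, the second was -0.012. At 94.3 mg/kg it was -0.26, and -0.051 without 94.3 mg/kg replicate 5. A difference in spread between groups was not tested.

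**Figure D3:**
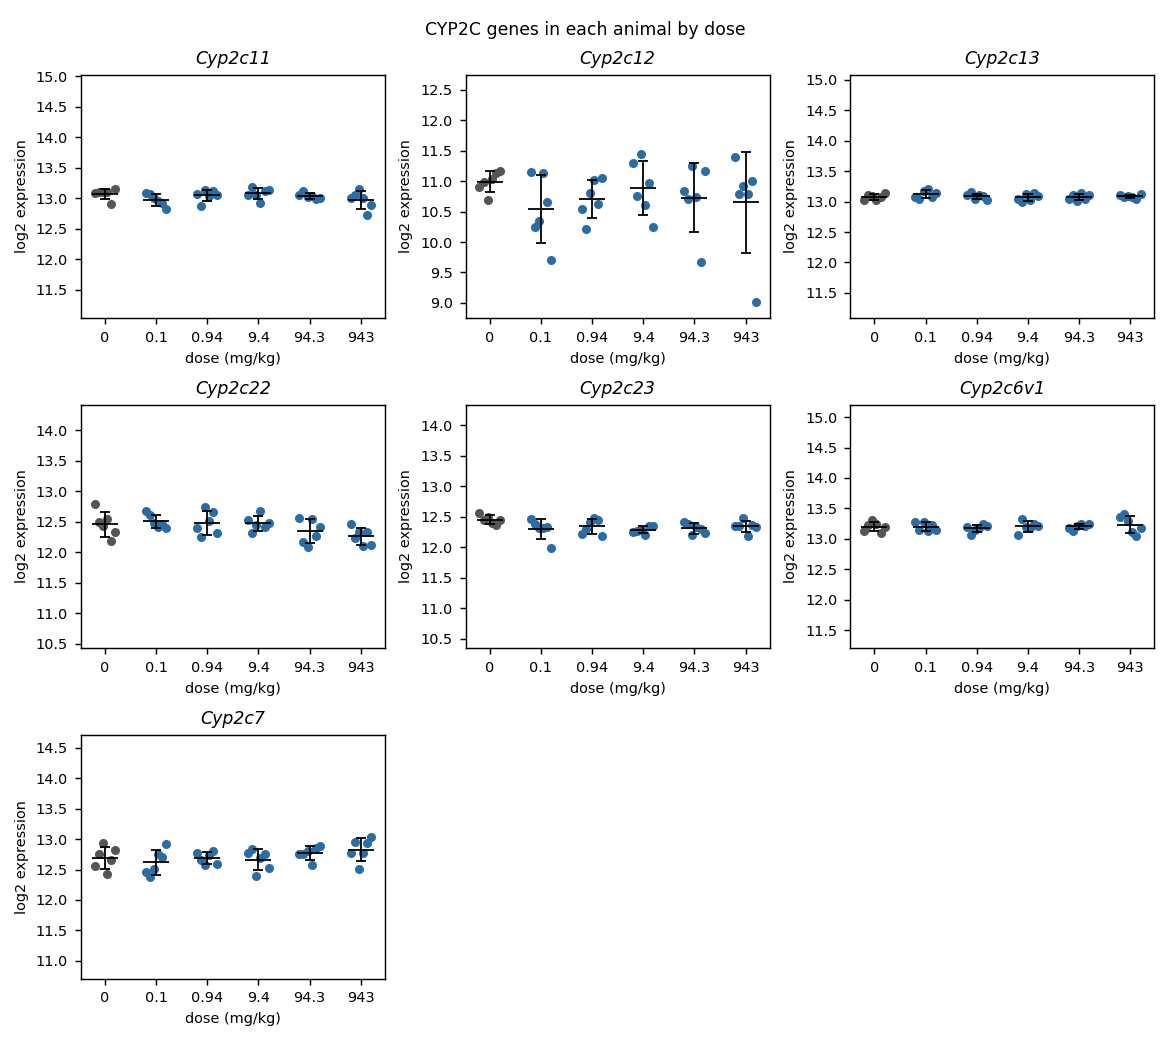
Log2 expression (y axis, a span of 4 in every panel) of the 7 CYP2C genes in each of 36 animals (points) by dose in mg/kg (x axis, 0 is vehicle), with the mean (bar) and SD (whiskers) of 6 animals. Cyp2c12 has a single low animal at 94.3 mg/kg (9.68) and at 943 mg/kg (9.02), and the values of Cyp2c13 stay between 13.00 and 13.20.

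The CYP2A genes hold steroid hydroxylases. Cyp2a2, which is male-predominant, had 11.81, 11.92 and 12.05 in vehicle and 11.71, 11.80 and 11.88 at 9.4 mg/kg, with 3 of 6 animals below the vehicle range. The difference there was -0.13 ± 0.048 (SE, adjusted p = 0.98 in limma), at 94.3 mg/kg it was -0.10 (adjusted p = 0.712), and at 943 mg/kg -0.03. Cyp2a1, its female-predominant neighbour, differed by 0.07 to -0.11 with 95% intervals between -0.34 and 0.30. Cyp2a3, a form of lung and nasal tissue, lay below every array median and differed by 0.10 at 943 mg/kg (0.068 without vehicle replicate 6). Of the CYP2B genes, Cyp2b3, the constitutive liver form, stayed between 12.37 and 12.68 in all 36 animals with differences from -0.02 to 0.04. Cyp2b12 and Cyp2b21, forms of other tissues, lay below every array median. Cyp2b1 and Cyp2b2, the phenobarbital-inducible forms that report CAR activity, have no probe set of their own here and were not analysed.

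In the CYP2D group, Cyp2d2, the debrisoquine hydroxylase of the rat, differed by -0.07 to -0.02 and Cyp2d3 by -0.13 to -0.06. The median of Cyp2d3 was 11.85 at 943 mg/kg and 12.01 in vehicle (lowest animals 11.76 and 11.78), a difference of -0.13 ± 0.070 (SE, adjusted p = 0.868 in limma) with overlapping groups. Cyp2d4, the CYP2D form also found in brain, has 2 probe sets. The brighter differed by -0.12 to -0.00112 and the second by -0.31 to 0.18. Over 36 animals, with dose group means removed, the 2 probe sets of Cyp2d4 had a Pearson correlation of 0.018 and the 2 of Cyp2j3 one of 0.77, given as descriptions of probe sets on the same arrays.

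Cyp2e1, which oxidises ethanol and acetaminophen, read 13.06, 13.16 and 13.29 in vehicle and 13.08, 13.20 and 13.36 at 943 mg/kg, with differences from -0.05 to 0.03. Cyp2j3, a fatty acid epoxygenase, was lowest at 94.3 mg/kg (8.81, 8.94 and 9.11, against 8.89, 9.25 and 9.33 in vehicle), with 1 of 6 animals below the vehicle range. The difference was -0.24 ± 0.098 (SE, adjusted p = 0.599 in limma), and the second probe set gave -0.27 (adjusted p = 0.666). At 943 mg/kg both were also lower (-0.16 and -0.21), and the slopes were -0.040 and -0.043 per dose rank (adjusted p = 0.85 and 0.874 in limma). Cyp2j4, another epoxygenase, differed by -0.16 to -0.05. Differences of the remaining genes, named by the rule for the smallest p in each direction or the widest spread, were 0.12 for Cyp2u1 at 9.4 mg/kg, 0.09 for Cyp2g1 at 943 mg/kg (0.037 without vehicle replicate 4), 0.03 for Cyp2f4 at 94.3 mg/kg, 0.02 for Cyp2j10 at 0.94 mg/kg, -0.17 to 0.08 for Cyp2t1 and -0.07 to 0.00348 for Cyp2s1. None of these passed (smallest adjusted p over all members and doses 0.599). Probe sets of closely related P450 genes can share signal, and their specificity beyond the annotation was not tested.

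The second axis of the data is the animals themselves, 6 per dose. Within dose groups, the SD between animals of the members ran from 0.0496 (Cyp2c13) to 0.672 (Cyp3a9), with a median of 0.148 against 0.145 for all probe sets. Only 0.364% of all probe sets had a larger SD than Cyp3a9 and 0.715% a larger one than Cyp2c12 (0.523), while 99.8% had a larger one than Cyp2c13 and 99.3% than Cyp3a2 (0.0611). The next widest were the second probe set of Cyp2d4 (0.499), Cyp2s1 (0.234), Cyp2t1 (0.228), the second probe set of Cyp2j3 (0.226), Cyp3a18 (0.205), Cyp2a1 (0.203), Cyp2b21 (0.198) and Cyp2j10 (0.189). The mean of Cyp2s1 (4.21) lay below the array medians. Its SD was widest at 0.94 mg/kg (0.42), where replicate 5 read 4.98. Of the 31 probe sets 12 had a mean above 12, and these had a median SD of 0.0939, against 0.0757 for all 225 probe sets with such a mean. Cyp2c13 (mean 13.09) and Cyp3a2 (13.43) belong to these bright probe sets, which spread less than all probe sets. Their rank among the 225 was not computed, and the part of brightness in their narrow spread was not tested. Over 36 animals 5 probe sets spanned 2-fold or more and 12 spanned less than 1.5-fold.

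**Figure D4:**
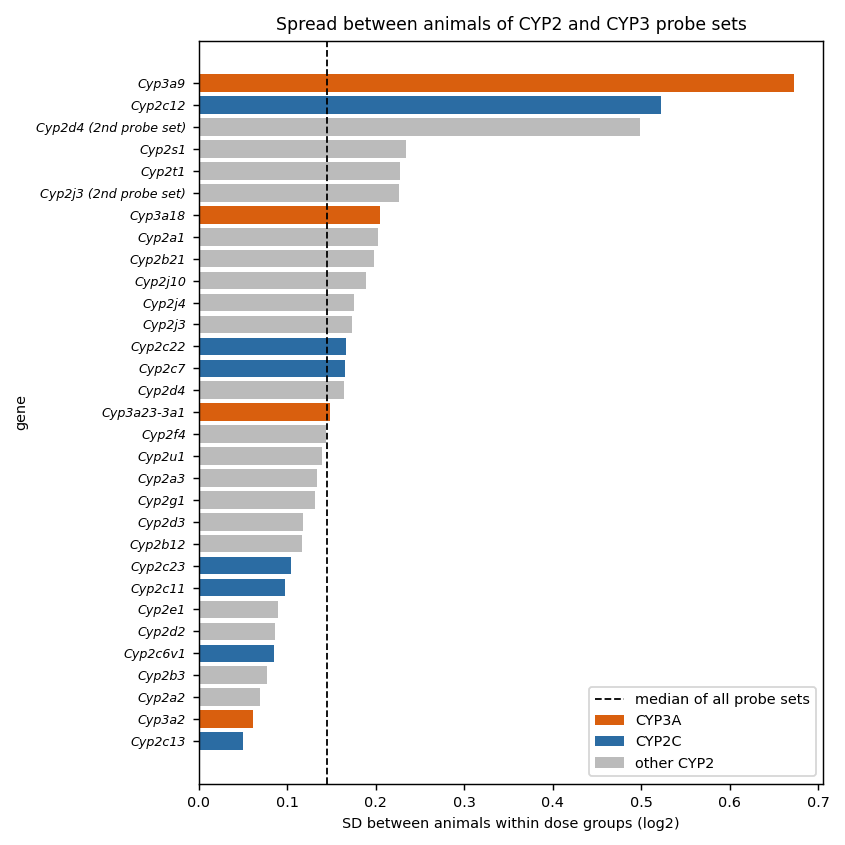
SD of log2 values between animals within dose groups (x axis) for the 31 CYP2 and CYP3 probe sets (y axis), with CYP3A in orange, CYP2C in blue and other CYP2 in grey. The dashed line is the median of all 31042 probe sets (0.145), and both ends of the order hold a CYP3A and a CYP2C gene: Cyp3a9 (0.672) and Cyp2c12 (0.523) at the top, Cyp3a2 (0.0611) and Cyp2c13 (0.0496) at the bottom.

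A further question was which of these genes rose and fell together from animal to animal at the same dose. For this the dose group mean was subtracted from each value, and Pearson's r was computed over 36 animals for all 171 pairs of 19 genes, which are those measured among 22 hepatic P450 genes listed for this purpose. In permutation tests within dose groups (two-sided, 100000 permutations, smallest possible p 1e-05) 30 pairs passed after Benjamini-Hochberg adjustment, 27 with positive and 3 with negative r, and 49 had an unadjusted p under 0.05. The median r of the 171 pairs was 0.195. An r of at least 0.468 in size, the smallest among the 30, was found in 19.3% of these pairs, in 1.77% of the 481787361 pairs of all probe sets and in 11.3% of the 25200 pairs of the 225 probe sets with a mean above 12, whose median r was -0.005. The labels and the value table name no batch, so values within batches could not be given.

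Of the 6 pairs among the CYP3A genes 4 passed. Cyp3a18 and Cyp3a23-3a1 gave r = 0.69 (rho = 0.63, permutation p = 4e-05, adjusted 0.00285, 0.62 without the 2 animals farthest from the median of Cyp3a18, 6 of 6 groups positive). Cyp3a9 gave r = 0.58 with Cyp3a23-3a1 (rho = 0.59) and 0.53 with Cyp3a18 (rho = 0.52), and Cyp3a2 gave 0.52 with Cyp3a23-3a1 (rho = 0.56). All 3 passed the adjusted permutation test. Cyp3a2 with Cyp3a9 (r = 0.29, adjusted permutation p = 0.248) and with Cyp3a18 (r = 0.10, adjusted permutation p = 0.727) did not. Cyp3a23-3a1 had the most partners that passed, 9 of 18, followed by Cyp3a18 with 8 and Cyp2c11 with 6. Although Cyp3a2 varied little, it had the highest r of all pairs with Cyp2c6v1 (r = 0.71, rho = 0.73, permutation p = 2e-05, adjusted 0.00285, 0.69 without the 2 farthest animals, 6 of 6 groups positive).

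Beyond the subfamily, Cyp2j4 followed Cyp3a18 (r = 0.67, rho = 0.68), Cyp2d3 followed Cyp2c11 (r = 0.64, rho = 0.58) and Cyp3a18 (r = 0.64, rho = 0.68), and Cyp2c11 followed Cyp3a23-3a1 (r = 0.63, rho = 0.51). The first was positive in 6 of 6 dose groups, and the last in 5 of 6. The 3 negative pairs were Cyp2c7 with Cyp2j4 (r = -0.53), Cyp2c7 with Cyp3a18 (r = -0.52) and Cyp2a1 with Cyp2b3 (r = -0.53). Cyp2c12 and Cyp2c13 had 0 partners that passed by this permutation test. All 30 pairs kept their sign without the 2 farthest animals. With each of the 36 animals left out in turn, r of Cyp3a18 with Cyp3a23-3a1 ran from 0.65 to 0.74 and that of Cyp2c6v1 with Cyp3a2 from 0.68 to 0.74.

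**Figure D5:**
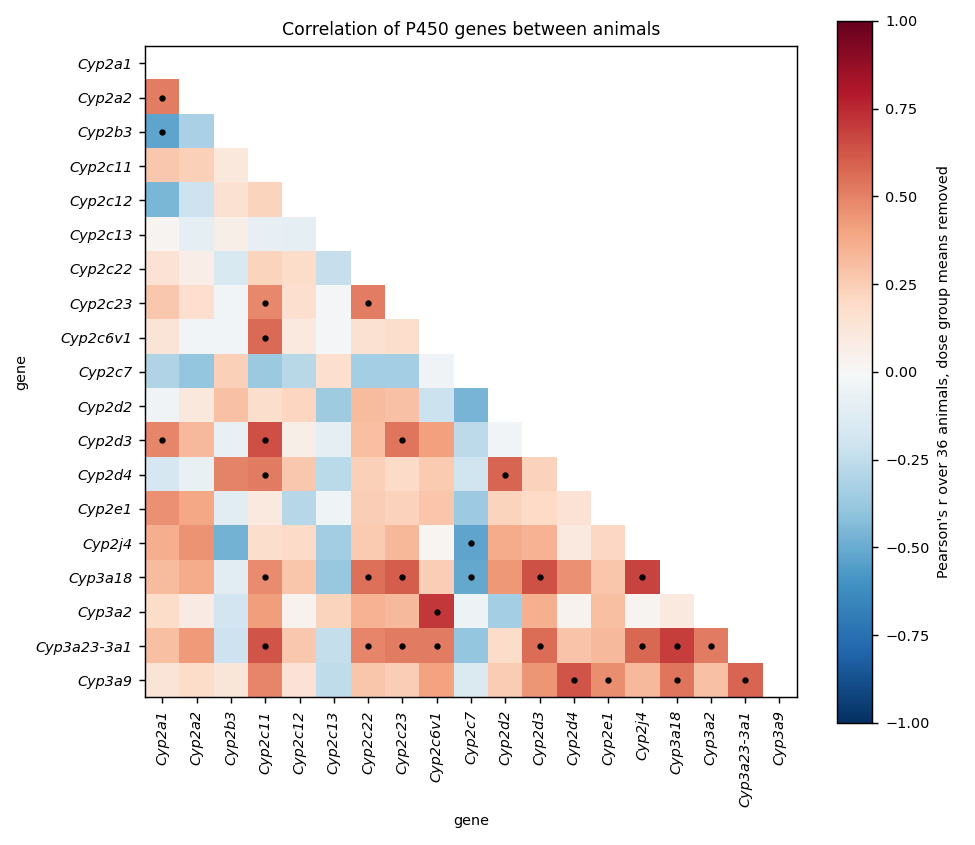
Pearson's r between the 19 P450 genes (both axes) over 36 animals after removal of dose group means, from -1 (blue) to 1 (red). Black dots mark the 30 of 171 pairs that passed the adjusted permutation test, 27 positive and 3 negative, with 9 for Cyp3a23-3a1 and 0 for Cyp2c12 and Cyp2c13.

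The receptors, cofactors and other partners of these enzymes were listed separately, and 22 of 24 had a probe set of their own. None passed in limma at any dose (0 of 22, against 0% of all probe sets). At 943 mg/kg 0 had an unadjusted p under 0.05, against 5.74% of all probe sets. Of the 22, 8 were higher there, against 15419 of all 31042 probe sets, and the median difference was -0.05. PXR (Nr1i2) differed by 0.04, CAR (Nr1i3) by -0.21 and the reductase Por by 0.06 at that dose. Over the 5 doses the smallest F test p were those of Ahr, Hnf4a and Foxa2, with adjusted p of 0.916 to 0.918 (limma). Other known targets of CAR and PXR had 15 of 20 genes measured, 0 of which passed. At 943 mg/kg 4 of the 15 were higher, against 15419 of all 31042 probe sets. The median difference was -0.12, against -0.00078 for all probe sets. The smallest p there were those of Gstm1, a glutathione transferase (-0.15), Ugt2b1, a glucuronosyltransferase (-0.28), and Abcc2, a bile canalicular exporter (-0.19), all with an adjusted p of 0.865 (limma).

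Between animals, 418 pairs of a P450 gene and a regulator or partner were computed in the same way, of which 3 passed and 73 had an unadjusted permutation p under 0.05. As background, the same 19 genes were set against all probe sets (589779 pairs). This background was not matched to the regulators for brightness, which raised the share among the P450 pairs above. An r of at least 0.607 in size, the smallest among the 3, was found in 0.718% of the 418 pairs and in 0.18% of those with all probe sets, and one of at least 0.331, the smallest at an unadjusted p under 0.05, in 21.3% and 10.4%. Cyp2c11 rose with CAR (Nr1i3), with r = 0.76, rho = 0.71, permutation p = 1e-05 (the smallest possible), adjusted p = 0.00418, r between 0.70 and 0.78 without any 1 animal, 0.66 without the 2 farthest, and a positive r in 6 of 6 groups. Cyb5a, the cytochrome that passes electrons to P450 enzymes, was the partner in both others, with Cyp3a23-3a1 (r = 0.61, rho = 0.61, adjusted p = 0.031) and Cyp2c11 (r = 0.61, rho = 0.60, adjusted p = 0.031). Of the other pairs with CAR, Cyp2c23 (r = 0.53), Cyp2d3 (0.55), Cyp2d4 (0.53) and Cyp3a23-3a1 (0.50) had adjusted permutation p from 0.0698 to 0.106 and did not pass. Onecut1, whose motif is marked above, gave r = 0.35 with Cyp2c12 (adjusted permutation p = 0.376).

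Marker genes were set beside the same 19 genes as list means, in 13 lists and 247 pairs. The lists covered hepatocytes, pericentral and periportal hepatocytes, other cell types, and the acute phase and interferon response. None of the 247 pairs passed the adjusted permutation test on Pearson's r, 18 had an unadjusted p under 0.05, and 1 passed by rank correlation. That pair was Cyp3a2 with the stellate cell and fibroblast list of 6 genes (r = -0.61, rho = -0.68, adjusted permutation p = 0.0716 and 0.0247), and Cyp2c6v1 with the same list gave r = -0.62 (adjusted p = 0.137). Its list mean ran from 6.92 to 7.41 in vehicle and from 6.87 to 7.29 at 943 mg/kg. Cyp2d2 gave r = -0.56 with the Kupffer cell and macrophage list (4 of 6 genes measured) and -0.48 with the acute phase and interferon list (9 of 10 measured), with adjusted permutation p of 0.166 and 0.277. The part of these cells and states in the correlations was not tested.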

How the data were processed

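Liver RNA of 36 rats was measured on 36 arrays, 1 per animal. The deposited values are log2 intensities per probe set made by the authors with RMA in affy, per the submitters' processing notes (versions: not given in the sources used here). In all, 57 control probe sets were dropped, and 31042 were tested without a filter. A linear model with 1 mean per group was fitted to all arrays (R 4.3.3, limma 3.58.1). Each dose was compared with vehicle, with an F test over 5 doses and a slope over dose rank. P-values are two-sided and Benjamini-Hochberg adjusted over all probe sets (threshold 0.05). They rest on the spread between animals within groups, pooled over the 6 groups and moderated over all probe sets. A wider spread in a single group is therefore not reflected separately. For arrays, the 6 animals per group limit the precision. A gene is represented by its probe set with the highest mean. Correlations used values minus group means, with 100000 permutations within groups (Python 3.11.15). Named were 19 listed hepatic P450 genes, the 3 smallest p per direction and comparison, the 8 widest spreads, and up to 4 genes per list. The members, lists and tests were chosen with earlier results of these data known. Scripts were tested on simulated data. Alternatives covered the filter, moderation, array weights, replicate block, normalization, centring, probe set choice, adjustment and leaving out each animal. After seeing the data, the marker list correlations, the background of all probe set pairs, r without 1 animal and every member difference without 1 animal were added.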

Additional observations from a re-analysis of the deposited data

Results flagged for a closer look

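Of 186 sets of 6 animals (31 probe sets in 6 groups), 17 held an animal whose gap to the nearest other animal was over 0.625 of the whole range. By its nominal rate the rule flags about 1 in 20 groups. The share flagged over all probe sets was not computed, and correlated genes can flag the same animal. The count is therefore not read as a trait of these genes. The animal stood low in 11 and high in 6. Vehicle replicate 5 was the lowest of its group for Cyp2c11 (12.91, others from 13.08), Cyp2j3 (8.89, others from 9.18) and Cyp3a2 (13.35, others from 13.45). In this animal 25 of 29 genes lay below their group mean, and its Kupffer cell and macrophage list mean minus the group mean was -0.42 and that of the acute phase and interferon list -0.41. Its stellate cell and fibroblast list mean was 0.27 above the group mean, the highest of the 6 vehicle animals, and its pericentral hepatocyte list mean 0.07 above. The stellate cell and fibroblast list had r = -0.61 with Cyp3a2 over 36 animals, this one among them. That pair did not pass the adjusted permutation test on Pearson's r and passed by rank correlation. Vehicle replicate 1 also had low Kupffer cell and macrophage (-0.49) and acute phase and interferon (-0.33) list means. Its stellate cell and fibroblast list mean was 0.13 and its pericentral hepatocyte list mean 0.10 above the group mean. In that animal, however, 8 of 29 genes lay below their group mean. The 943 mg/kg replicate 6 was the lowest for Cyp2c12 (9.02, others from 10.78), and 23 of its 29 genes lay below their group mean. Its acute phase and interferon list was 0.44 above the group mean, and its pericentral hepatocyte list mean minus the group mean was -0.27. The Kupffer cell and macrophage list of this animal was 0.28 and its stellate cell and fibroblast list 0.17 above the group mean. The 943 mg/kg replicate 2 had an acute phase and interferon list 0.48 above the group mean. Its Kupffer cell and macrophage, stellate cell and fibroblast, and pericentral hepatocyte list means minus the group mean were 0.36, -0.24 and 0.14. There, 13 of 29 genes lay below their group mean. The part of these cell types and states in the values was not tested.

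The other low animals were Cyp2c12 at 94.3 mg/kg (9.68, others from 10.70), Cyp2c23 at 0.1 mg/kg (11.99, others from 12.32), Cyp2c11 at 0.94 mg/kg (12.88), Cyp3a2 at 0.1 mg/kg (13.30), Cyp2e1 at 9.4 mg/kg (12.93), Cyp2b21 at 9.4 mg/kg (2.68) and the second probe set of Cyp2j3 at 943 mg/kg (6.16). High animals were found for Cyp2a1 in vehicle (10.17), at 9.4 mg/kg (10.05) and at 94.3 mg/kg (10.13), and at 943 mg/kg for Cyp2a2 (12.01) and Cyp2u1 (6.27). Cyp2t1 had a high animal at 94.3 mg/kg (7.97).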

How the results depend on the processing

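The count of members that passed was 0 at each dose, over the 5 doses and by the trend under every alternative run: the brighter 50% of probe sets, array weights, robust moderation with a variance trend, normalization again, centred arrays, 2 groups only, 1 probe set per gene, an ordinary linear model, other dose scores, adjustment over all doses and each animal left out. The median member difference, leaving out 1 animal in turn, ran from -0.071 to -0.011 at 0.1 mg/kg, -0.063 to -0.029 at 0.94, -0.062 to -0.002 at 9.4, -0.090 to -0.040 at 94.3 and -0.038 to 0.004 at 943 mg/kg. Of the 155 member differences 66 turned their sign when 1 animal was left out, as recomputed for all of them after seeing the data. Among the 30 differences named by rule these were Cyp3a9 at 9.4 mg/kg (-0.145 to 0.430), Cyp2c13 at 0.94 (-0.0022 to 0.022), Cyp2g1 at 0.94 (-0.022 to 0.069), Cyp2j10 at 0.94 (-0.027 to 0.067) and Cyp2f4 at 94.3 mg/kg (-0.035 to 0.078). Pairs of a P450 gene and a regulator that passed numbered 3, and 7 with arrays centred on their medians and 4 by rank correlation. With the replicate block they numbered 15. In that setting replicate means were removed, but the permutations stayed within dose groups only and did not preserve this removal. Its p-values can therefore be too small, and the count of 15 cannot be compared with the others. The cause of the differences between these counts was not tested. P450 pairs numbered 30, and 33 to 40 in the alternatives, of which the replicate block has the same limit. Over all probe sets, animals with the same replicate number shared little deviation from their group means. The median correlation of deviations was 0.0026 for 90 same-number pairs and -0.0094 for 450 others, and 7 of 36 arrays correlated best with their own number. A shared order or batch that acts on fewer genes was not tested. The block left the count of members that passed at 0 at each dose.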
